A study of Mus musculus with 36 samples.

Results

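Pancreatic ductal adenocarcinoma (PDA) cells of the mouse line KSIC_806 labelled KO for Rreb1 were compared with cells of the same line labelled WT while the TGFβ type I receptor was inhibited. All 4 libraries of this comparison, 2 KO and 2 WT, came from cells given 2.5 µM SB505124, a small-molecule inhibitor of the TGFβ type I receptor kinase, for 6 h, and they are 4 of the 36 samples of the series. Of the 18256 genes in the table, the comparison covered the 13226 that reached 10 deposited units in 2 or more of the 8 PDA libraries. The other 4 PDA libraries, 2 KO and 2 WT, were given 100 pM TGFβ for 1.5 h. They entered the same fit and served as a separate comparison of the genotypes. E14 mouse embryonic stem cells with the same KO and WT labels, taken at day 0 of embryoid body formation with 2 libraries each, were used for a further comparison. Every PDA library also carries the mark S4, for which the labels give no meaning. The labels state neither the edit made in Rreb1 nor whether a genotype is 1 clone or several. An effect of losing Rreb1 and any other way in which the cells of the genotypes differ therefore cannot be told apart.

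RREB1 is a zinc finger transcription factor that binds RAS-responsive DNA elements. TGFβ signals through paired receptor kinases that phosphorylate SMAD proteins, and the SMADs then act on genes together with partner transcription factors. In carcinoma cells this pathway is known for inducing the epithelial-mesenchymal transition (EMT), a change in which epithelial cells lose junctions and gain matrix and motility genes. In PDA it acts beside RAS and ERK signalling, which drives growth in this tumour type. The comparison described here sets the genotypes side by side with that receptor inhibited. What the inhibitor did to SMAD signalling in these cells was not tested in this comparison.

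The unit of every level below is the authors' deposited normalized read count, which is not scaled to gene length, so levels are compared between libraries and not between genes. Recovered depth was 20.4 M reads in KO replicate 1, 44.5 M in KO replicate 2, and 40.3 and 40.2 M in the WT libraries. Deposited totals were 41.1 and 40.8 M units in KO cells, against 36.9 and 36.7 M in WT cells. The genotypes separated on the first principal component of the 8 libraries, which held 69.4% of the variance. The treatments separated on the second, with 19.6%. Among 10533 genes with a mean of at least 100, 8 differed by more than 2-fold between the KO replicates and 24 between the WT replicates, 23 of the 24 being higher in WT replicate 2. The median absolute log2 gap over these genes was 0.064 between the KO replicates and 0.20 between the WT replicates. The fit pooled the spread of all groups, so the standard errors do not show this inequality. No label states that the replicates are independent cultures, and the p-values reflect the spread between these libraries alone, which may be technical. In bulk RNA, a different mix of cells and a different amount of RNA per cell cannot be told apart.

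The markers of pancreatic epithelium were abundant in both genotypes. Summed over the 8 listed genes they reached 496821 to 507652 in KO libraries and 383591 to 470507 in WT libraries, with Cldn7 alone under 10 in all 8 PDA libraries. Of 9 fibroblast markers 5 were under 10 in all 8 libraries and 1 had no row, and the sum was 130.3 to 137 in KO and 73.9 to 94.5 in WT libraries. Of 8 leukocyte markers 2 were under 10 and 2 had no row, and the sum of 2654 to 2754 in KO and 2106 to 2276 in WT libraries came mostly from Cd14. Endothelial markers summed to 1370 to 1388 in KO libraries, against 46.8 to 53.8 in WT libraries. Of the 6, Pecam1, Kdr, Tek and Tie1 were under 10 in all 8 libraries and the other two were higher in KO cells. Cdh5, which encodes VE-cadherin, made up most of the sum, at 1358 and 1328 in KO cells, against 38.5 and 45.6 in WT cells. Vwf, the von Willebrand factor gene, had 53 reads in KO and 3 in WT cells, a ratio of 24.3 with a 95% counting interval of 7.89 to 122. Of 8 acinar markers 2 were under 10 and 4 had no row (sums of 317 to 338 in KO and 144 to 153 in WT libraries). Of 8 endocrine markers 1 was under 10 and 6 had no row (8.05 to 11.01 in KO and 14.7 to 15.5 in WT libraries). Of 6 embryonic stem cell markers 3 were under 10 and 2 had no row (10.1 to 14.7 in KO and 2.74 to 9.18 in WT libraries). The part of other cell types in the results below was not tested.

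Rreb1 itself was read first, because it checks the labels. Its value was 2164 and 2195 in KO cells, against 1458 and 1501 in WT cells. The transcript was thus present in all 4 libraries, and it was higher in both libraries labelled KO than in either labelled WT (log2 fold change 0.56 ± 0.08 SE, adjusted p = 0.000564). Under TGFβ the order was the opposite, with 2886 and 2560.4 in KO cells, against 4293 and 4212 in WT cells (log2 fold change −0.65). Reads summed over a gene cannot reveal a short insertion or deletion, and KO is used here as the labels use it. Rreb1 lies on chromosome 13 from 37778382 to 37952005 (GRCm38.p6). Of the other 10 tested genes within 1 Mb of it, 6 were lower in KO cells, none was higher and 4 did not pass the threshold, beside 53.8% lower among all tested genes of chromosome 13 and 27.2% over all chromosomes. The lower ones had log2 fold changes from −3.15 (F13a1, a coagulation factor subunit gene) to −0.34 (Ssr1, a translocon-associated protein gene).

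The genotypes differed over much of the transcriptome. With limma, 7428 of 13226 genes passed an adjusted p of 0.05, which is 56.2% of the genes tested. Of these, 3828 (28.9% of all) were higher and 3600 (27.2%) were lower in KO cells. After the libraries were rescaled to the same total the split was 2975 higher and 4901 lower, because rescaling moved the median log2 fold change of all genes to −0.156, against −0.0029 as deposited. Most calls were small: the median absolute log2 fold change of called genes was 0.68 and the smallest was 0.15. At least 2-fold differences numbered 1360 higher and 1000 lower, at least 8-fold differences 239 and 268, and at least 32-fold differences 57 and 75. In 76.8% of all tested genes both KO values lay on one side of both WT values. Every gene below that is said to have risen, fallen or been higher or lower passed this threshold, and in each of those given with its 4 values both KO values lay on one side of both WT values. Counts of list members are to be read against the shares of 28.9% and 27.2%.

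**Figure D1:**
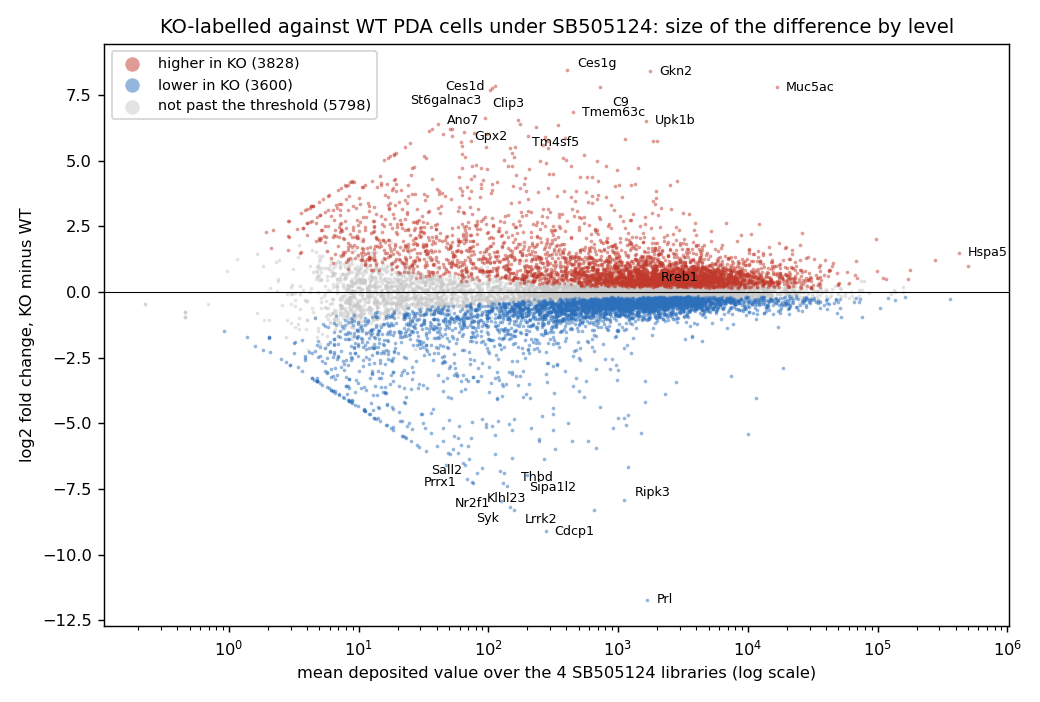
Log2 fold change of KO over WT cells under SB505124 (vertical axis) against the mean deposited value over the 4 libraries (horizontal axis, log scale), one point per tested gene. Red points are the 3828 genes higher in KO cells, blue points the 3600 lower and grey points the rest, and genes with the largest differences each way are named together with Rreb1 and Hspa5.

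The 12 largest increases in KO cells were Ces1g, Gkn2, Ces1d, C9, Muc5ac, St6galnac3, Ano7, Tmem63c, Clip3, Gpx2, Upk1b and Tm4sf5. Muc5ac encodes the gel-forming mucin of the gastric surface. It stood at 33087 and 33801 in KO cells, against 158 and 143 in WT cells (log2 fold change 7.79 ± 0.07 SE, adjusted p = 4.28e-09). Gkn2, which encodes a secreted gastrokine of the stomach lining, had values of 3546 and 3474 in KO and 11.9 and 7.30 in WT cells (log2 fold change 8.41 ± 0.20 SE, adjusted p = 3.27e-07). Both genes were therefore present at a low level in WT cells and at over 200 times that level in KO cells, with values of 222-fold for Muc5ac and 365-fold for Gkn2. C9, a terminal complement component, reached 1517 and 1369 in the KO libraries, against 4.59 and 6.38 in the WT libraries (log2 fold change 7.81). Upk1b, a urothelial tetraspanin gene, reached 3329 and 3115 in KO cells, against 41.3 and 28.3 in WT cells (6.52). Tmem63c, a membrane channel family gene, stood at 905 and 894 in KO and 7.34 and 6.38 in WT cells (6.84). Gpx2, the epithelial glutathione peroxidase, stood at 339.9 and 338 in the KO libraries, against 3.67 and 1.82 in the WT libraries (6.55), and Tm4sf5, a tetraspan membrane protein gene, at 352 and 340.5 in KO cells, against 3.67 and 2.74 in WT cells (6.38).

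A few genes had no read at all in WT cells. With a mean of at least 50 in KO cells there were 7 of these, namely Ano7, Ces1d, Heph, Oas1g, Opcml, Sstr5 and St6galnac3. Ces1d was at 255 and 199 in KO libraries, at least 166-fold above the floor of 3 reads over both WT libraries. St6galnac3, a sialyltransferase gene, was at 225 and 204 in KO libraries and at least 156-fold higher. Ano7, of the anoctamin family, was at 213 and 202 in KO libraries and at least 151-fold higher. The same genes had at most 2 reads in any WT library under TGFβ. Ces1g had 807 and 797 in KO cells and 3 reads in all in WT cells, a ratio of 583 with a 95% counting interval of 199 to 2832. Clip3, a microtubule-binding protein gene, had 303 reads in KO and 2 in WT cells, a ratio of 209 (57.3 to 1731). Ces1d and Ces1g belong to a cluster of near-identical carboxylesterase genes on chromosome 8, so reads may be shared among copies. The intervals and the floor cover counting error only.

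The largest decreases were led by Prl, which encodes the hormone prolactin. It had no read in either KO library and stood at 3717 and 3028 in WT libraries, at least 1784-fold lower in KO cells. In total 13 genes with a mean of at least 50 in WT cells had no read in KO cells, 4 of them on chromosome 13. Cdcp1, a transmembrane substrate of SRC kinases, stood at 563 and 543 in WT libraries, so that KO cells were at least 292-fold lower. Lrrk2, a large kinase and GTPase gene, stood at 341 and 292 (at least 167-fold lower), and Syk, a cytoplasmic tyrosine kinase gene, at 288 and 297 (at least 155-fold lower). Nr2f1, an orphan nuclear receptor gene, stood at 239.5 and 261 in WT libraries. Prrx1, a homeodomain EMT transcription factor gene, stood at 143 and 130.4, Sall2, a zinc finger factor gene, at 164 and 142, and Klhl23 at 164 and 135. The remaining genes without a KO read were A830082K12Rik, Clip4, Snhg18, Tnfsf12 and Wtip.

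Other large decreases kept a few reads in KO cells. Ripk3, the kinase of necroptotic cell death, stood at 6.03 and 11.01 in KO and 2258 and 2195 in WT cells (log2 fold change −7.92 ± 0.29 SE, adjusted p = 1.24e-06). Sipa1l2 had 2 reads in KO and 611 in WT cells, a WT over KO ratio of 222 with a 95% counting interval of 61.1 to 1835. Thbd, which encodes the anticoagulant receptor thrombomodulin, had 2 and 568 reads, a ratio of 206 (56.8 to 1706). In all of these extreme genes the groups did not overlap, which the rule for naming them required.

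The list of gastric-type mucins, gastrokines and trefoil factors had the largest median of the pathway lists. Of 14 tested members 10 rose and 3 fell, with a median log2 fold change of 2.34, beside −0.0029 over all genes. These counts were the same under each of the 17 alternatives, among them leaving out any 1 library. Gkn1, a gastrokine gene like Gkn2, stood at 1569 and 1539 in the KO libraries, against 48.6 and 61.1 in the WT libraries (log2 fold change 4.81 ± 0.13 SE, adjusted p = 3.27e-07). The mucin gene Muc5b stood at 1066 and 1081 in KO cells, against 26.6 and 29.2 in WT cells (5.22). The trefoil factor genes, which encode small secreted peptides of mucosal repair, were split. Tff1 stood at 1275 and 1318 in KO and 79.8 and 123 in WT cells (3.69) and Tff3 at 2398 and 2351 in the KO libraries, against 131 and 153 in the WT libraries (4.06), while Tff2 fell to 2.01 and 0 in KO cells, against 15.6 and 26.4 in WT cells (−3.62). Muc1, the transmembrane mucin, stood at 10222 and 10174 in KO cells, against 3990.4 and 4394 in WT cells (log2 fold change 1.28 ± 0.07 SE, adjusted p = 5.78e-06). Anxa10 and Vsig1, markers of gastric epithelium, rose by less (0.73 and 1.30), and the gastric protease gene Ctse fell slightly (6193 and 6164 in KO and 8234 and 7478 in WT cells, −0.34). The list was written with these results known, so its direction is not independent evidence.

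Pancreatic ductal and progenitor genes were mostly higher, with exceptions among the best-known factors. Of 22 tested genes 12 rose and 4 fell (median 0.45). Cftr, the chloride channel of ductal secretion, stood at 3981 and 3848 in the KO libraries, against 973 and 777 in the WT libraries (log2 fold change 2.17 ± 0.14 SE, adjusted p = 1.46e-05). Prom1, a membrane protein gene of ductal and progenitor cells, stood at 1197 and 1112 in KO cells, against 249.6 and 204 in WT cells (log2 fold change 2.35 ± 0.12 SE, adjusted p = 4.82e-06). The transcription factor genes Gata4 (1.22), Gata6 (0.60), Ehf (2.03), Elf3 (0.60), Klf5 (0.62), Foxa2 (0.49), Hnf4a (0.40) and Hnf4g (1.28) rose. Sox9, the ductal SOX factor, was lower at 26.1 and 36.7 in KO cells, against 89.9 and 101 in WT cells (log2 fold change −1.59 ± 0.25 SE, adjusted p = 0.00126), and Foxa1 was lower at 243 and 238 in KO cells, against 421 and 367 in WT cells (−0.71). Pdx1 did not pass the threshold (−0.23, adjusted p = 0.344).

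Epithelial junction and keratin genes moved in both directions. Of 20 tested, 11 rose and 5 fell (median 0.40). Cdh1, which encodes the adherens junction protein E-cadherin, stood at 29807 and 29204 in KO and 16783 and 15981 in WT cells (log2 fold change 0.85 ± 0.06 SE, adjusted p = 1.94e-05). Jup, the gene of plakoglobin, stood at 8573 and 8952 in the KO libraries, against 2862 and 4145 in the WT libraries (1.35), and the tight junction protein genes Tjp1 (0.77) and Cgn (0.85) also rose. Ovol2, a repressor of EMT factors, stood at 32.2 and 49.6 in KO cells, against 5.51 and 4.56 in WT cells (2.77). Against this, the desmosomal cadherin gene Dsc2 stood at 8.05 and 5.51 in KO and 308 and 284 in WT cells (log2 fold change −5.27 ± 0.22 SE, adjusted p = 2.01e-06). Cldn6 stood at 10958 and 11470.5 in the KO libraries, against 17415 and 18413 in the WT libraries (−0.68), and Pkp2 fell by less (−0.55). The keratin genes Krt8 and Krt18 did not pass the threshold (0.19, adjusted p = 0.32, and −0.021, adjusted p = 0.823).

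The EMT transcription factors included no gene that rose. Of 9 tested 3 fell (median −0.14), namely Prrx1, Twist2 and Twist1, and 0 to 1 rose over the alternatives. Twist2 stood at 16.1 and 11.01 in KO cells, against 141 and 161 in WT cells (log2 fold change −3.41 ± 0.24 SE, adjusted p = 2.39e-05) and Twist1 at 531 and 563 in KO and 976 and 950.3 in WT cells (−0.82). Snai1, a SMAD-induced EMT transcription factor gene, had few reads in either genotype, with values of 2.01 and 10.1 in the KO libraries, against 6.42 and 10.03 in the WT libraries (adjusted p = 0.361). Zeb1 (−0.049, adjusted p = 0.731), Zeb2 (−0.14, 0.23) and Snai2 (0.13, 0.576) did not pass the threshold. Mesenchymal markers were split, 3 higher and 3 lower of 8 (median −0.10). Sparc, a matricellular glycoprotein gene, stood at 18.1 and 25.7 in KO cells, against 258 and 248 in WT cells (log2 fold change −3.49 ± 0.18 SE, adjusted p = 5.65e-06), and Vim fell by little (−0.31). S100a4, a calcium-binding protein gene linked to cell motility, rose to 16642 and 16276 in KO cells, against 6454 and 5685 in WT cells (1.44), and Cdh2, which encodes N-cadherin, rose too (0.47).

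Unfolded protein response genes were higher in KO cells. The endoplasmic reticulum (ER) answers a load of unfolded proteins through the sensors IRE1, PERK and ATF6, which raise chaperones and the ER-associated degradation (ERAD) machinery. Of 25 tested ER chaperone, folding and ERAD genes 20 rose and none fell, against 28.9% and 27.2% of all genes. The median log2 fold change was 0.77, or 0.61 once libraries were rescaled. Over the 17 alternatives 19 to 20 members rose and 0 to 1 fell. Hspa5, which encodes BiP, the main ER chaperone, stood at 637255 and 613929 in KO and 241085 and 204919.8 in WT cells (log2 fold change 1.49 ± 0.09 SE, adjusted p = 1.34e-05). It made up 1.55% and 1.50% of the deposited units in KO libraries, against 0.65% and 0.56% in WT libraries. In the TGFβ libraries the gene stood at 22119 and 24788 in KO cells, against 21864 and 21477 in WT cells. Both genotypes were thus far higher under SB505124 for 6 h than under TGFβ for 1.5 h.

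Herpud1, an ERAD component induced by ER stress, rose most of the list, with 42719.9 and 43724 in the KO libraries, against 8934 and 9538 in the WT libraries (log2 fold change 2.23 ± 0.06 SE, adjusted p = 3.66e-07). The ERAD ubiquitin ligase gene Syvn1 stood at 21564 and 23186 in KO cells, against 5797 and 7878 in WT cells (1.73) and its partner Sel1l at 21498 and 21050.5 in KO and 10306 and 9168 in WT cells (1.13). In each of these genes the lower KO value was more than 2 times the higher WT value. The ER cochaperone gene Dnajb9 (1.33), the chaperone genes Hyou1 (1.09), Hsp90b1 (0.82) and Calr (0.78), and the disulfide isomerase gene Pdia4 (0.96) rose as well. So did the sensor genes Atf6 (1.06) and Ern1, which encodes IRE1 (0.81), and the transcription factor gene Xbp1 (0.64). Canx, Pdia3, P4hb, Derl2 and Sec61b did not pass the threshold, with log2 fold changes from −0.22 to 0.12.

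ER stress factors are known to act at the ER stress response element (ERSE), searched here as CCAAT, then 9 bases of any kind, then CCACG. RefSeq promoter windows (GRCm38.p6, 250 bases before to 50 after the start) were available for 21 of the 25 tested genes, and not for Hyou1, Manf, Derl1 and Atf6. On either strand the element was found in 8 of these 21 (38.1%), against 37 of 27025 genes with a window (0.137%) and 18 of 9914 tested genes with one (0.182%). Of the 18 tested genes with the element, 9 were higher and 4 lower in KO cells. Of the 25 tested list members, with or without it, 20 were higher. The 8 list genes with it were Hspa5, Calr, Hsp90b1, Canx, Pdia6, Dnajc3, Creld2 and Syvn1, and all but Canx rose in KO cells. A match of letters is a description and does not show binding. The list holds genes chosen for their part in the ER stress response. A high share with the element could come from that choice alone and is no evidence on the genotype difference. The 250 bases before the start of 3 of them are shown, 5′ to 3′ on the gene's strand with the ERSE in capitals, because Hspa5 encodes the main chaperone of the list, Hsp90b1 holds the element in each orientation and Syvn1 rose most of the matching genes. Hspa5 lies at chr2:34771840-34772089, plus strand, with the first capital 65 bases before the start. Hsp90b1 lies at chr10:86705445-86705694, minus strand, with matches beginning 212 and 107 bases before the start, the second on the opposite strand. Syvn1 lies at chr19:6046326-6046575, plus strand, with the match 44 bases before the start.
Hspa5: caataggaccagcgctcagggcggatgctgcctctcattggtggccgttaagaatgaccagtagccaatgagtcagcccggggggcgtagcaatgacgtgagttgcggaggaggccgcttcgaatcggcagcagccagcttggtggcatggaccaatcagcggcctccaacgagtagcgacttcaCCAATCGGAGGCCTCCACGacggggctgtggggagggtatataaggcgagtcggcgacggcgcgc
Hsp90b1: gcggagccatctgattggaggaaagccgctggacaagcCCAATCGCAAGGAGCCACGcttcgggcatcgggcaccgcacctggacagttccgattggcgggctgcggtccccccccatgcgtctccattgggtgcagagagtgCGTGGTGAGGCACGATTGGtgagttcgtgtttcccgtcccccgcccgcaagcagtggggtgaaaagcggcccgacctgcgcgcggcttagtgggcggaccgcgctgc
Syvn1: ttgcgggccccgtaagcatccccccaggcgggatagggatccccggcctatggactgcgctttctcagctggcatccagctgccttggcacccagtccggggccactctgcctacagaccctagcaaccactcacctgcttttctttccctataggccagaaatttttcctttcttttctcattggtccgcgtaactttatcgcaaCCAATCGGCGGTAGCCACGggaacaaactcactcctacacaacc

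In the integrated stress response, ATF4 raises amino acid transport and synthesis genes after eIF2α phosphorylation. Transcripts of most listed genes of this response were also higher in KO cells. The phosphorylation and the ATF4 protein were not measured. Of 24 tested ATF4 and integrated stress response genes 19 rose and 1 fell (median 0.67, 0.51 after rescaling), and 17 to 20 rose over the alternatives. Stc2, a secreted glycoprotein gene of the stress response, stood at 2506 and 2555 in the KO libraries, against 421 and 456 in the WT libraries (log2 fold change 2.53 ± 0.11 SE, adjusted p = 2.11e-06). Ppp1r15a, whose product reverses eIF2α phosphorylation, stood at 7903 and 8433 in KO cells, against 1946 and 2360.3 in WT cells (log2 fold change 1.93 ± 0.12 SE, adjusted p = 1.08e-05). Ddit3, which encodes the pro-apoptotic factor CHOP, stood at 5712 and 5477 in KO and 1629.9 and 2035 in WT cells (log2 fold change 1.62 ± 0.14 SE, adjusted p = 5.95e-05). The cystine transporter gene Slc7a11 stood at 40296 and 38234 in the KO libraries, against 12426 and 10243 in the WT libraries (1.80), and the glutathione-degrading enzyme gene Chac1 at 4743 and 5165 in KO cells, against 1492 and 1990.1 in WT cells (1.52). Atf4 itself rose by less, at 30501 and 30865 in KO and 22549 and 22223 in WT cells (0.45). The exception was Aldh1l2, the mitochondrial folate enzyme gene, which fell to 215 and 147 in KO cells, against 414 and 373 in WT cells (log2 fold change −1.14 ± 0.21 SE, adjusted p = 0.00265). Among the serine synthesis genes Phgdh, Psat1 and Psph none passed the threshold.

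ATF4 is known to act with C/EBP factors at a composite element (CARE), searched here as TGATGNAAN on either strand. Promoter windows were available for 22 of the 24 tested genes, and not for Aldh1l2 and Slc7a5. The motif was found in 7 of the 22 (31.8%), namely Atf3, Chac1, Trib3, Slc7a11, Asns, Nupr1 and Vldlr, against 1215 of 27025 genes (4.50%) and 276 of 9914 tested genes (2.78%). Of the 276 tested genes with the motif, 101 were higher and 60 lower in KO cells. Of the 24 tested list members, with or without it, 19 were higher. All 7 list genes with the motif rose. As for the ERSE, the share in the list could come from the choice of its members alone and is no evidence on the genotype difference. Upstream sequences of 3 of the 7 are shown with the motif in capitals. Slc7a11 holds it in each orientation, Chac1 is among the largest increases and Asns is an amino acid synthesis enzyme gene. Slc7a11 lies at chr3:50443614-50443863, minus strand, with matches beginning 66 and 48 bases before the start. Chac1 lies at chr2:119350992-119351241, plus strand, with the match 194 bases before the start, and Asns at chr6:7693210-7693459, minus strand, with the match 23 bases before it.
Slc7a11: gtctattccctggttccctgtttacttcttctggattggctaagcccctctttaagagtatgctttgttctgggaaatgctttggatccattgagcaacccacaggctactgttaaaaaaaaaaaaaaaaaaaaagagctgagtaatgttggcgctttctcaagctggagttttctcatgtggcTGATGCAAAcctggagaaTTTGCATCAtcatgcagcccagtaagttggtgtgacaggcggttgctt
Chac1: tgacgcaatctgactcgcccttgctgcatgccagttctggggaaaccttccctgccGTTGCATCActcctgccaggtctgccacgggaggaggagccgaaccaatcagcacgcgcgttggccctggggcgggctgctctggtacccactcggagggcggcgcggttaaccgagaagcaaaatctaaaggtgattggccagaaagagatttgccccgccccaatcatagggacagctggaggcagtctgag
Asns: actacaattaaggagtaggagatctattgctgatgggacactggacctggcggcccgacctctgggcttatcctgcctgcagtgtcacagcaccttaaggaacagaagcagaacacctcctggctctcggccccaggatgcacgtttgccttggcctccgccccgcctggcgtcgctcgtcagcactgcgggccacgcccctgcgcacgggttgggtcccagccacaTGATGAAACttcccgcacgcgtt

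**Figure D2:**
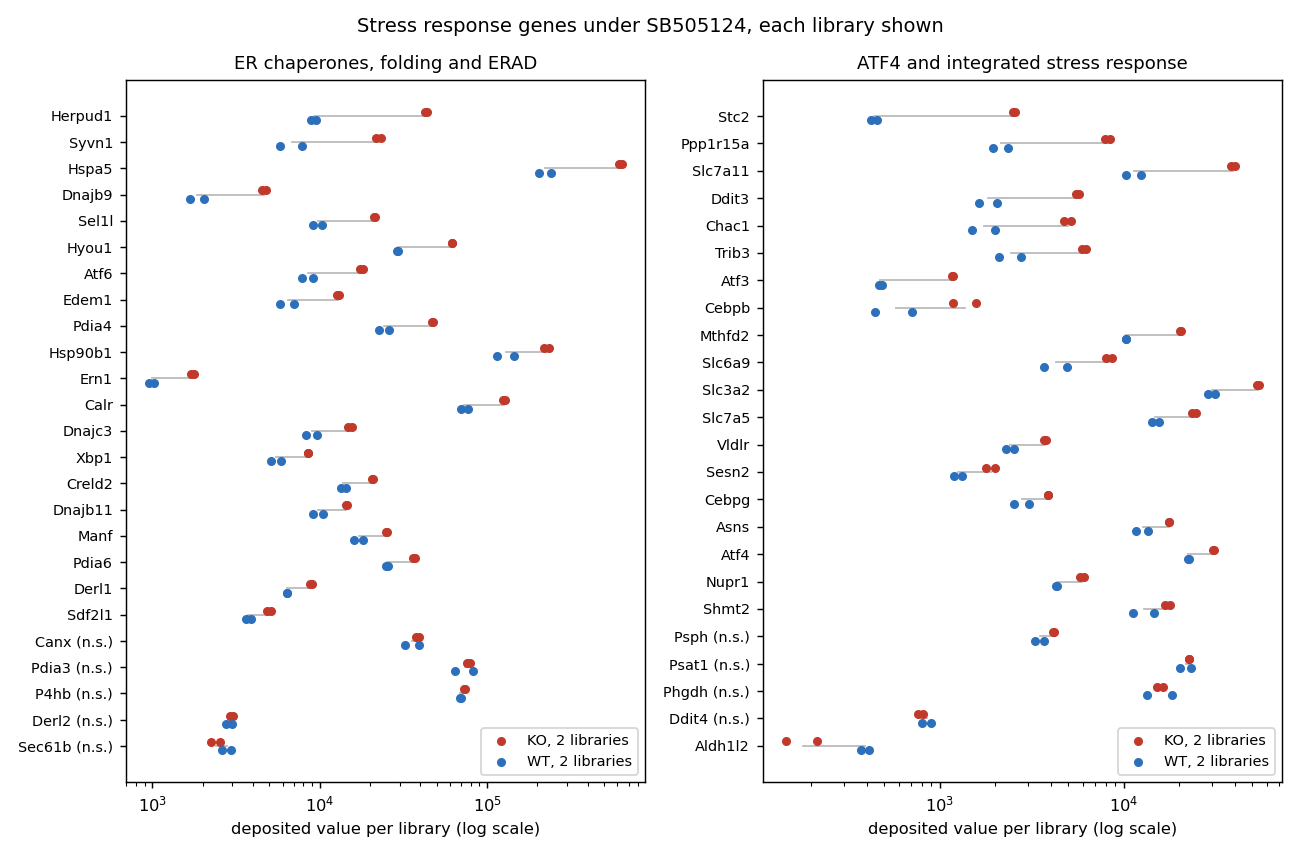
Deposited values (horizontal axes, log scale) of each tested ER chaperone, folding and ERAD gene (left) and each ATF4 and integrated stress response gene (right) in the 2 KO libraries (red) and the 2 WT libraries (blue) under SB505124, with a grey line between the group means. Genes marked n.s. did not pass an adjusted p of 0.05, and 20 of 25 and 19 of 24 genes were higher in KO cells.

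Immediate early genes, the first transcribed targets of growth factor and stress signalling, also stood higher. Of 22 tested 15 rose and none fell (median 0.78), with 12 to 16 rising over the alternatives. Fos stood at 1153 and 1138 in the KO libraries, against 104 and 114 in the WT libraries (log2 fold change 3.38 ± 0.11 SE, adjusted p = 8.81e-07) and Egr1 at 374 and 385 in KO cells, against 45.9 and 45.6 in WT cells (log2 fold change 3.03 ± 0.15 SE, adjusted p = 4.5e-06). Fosl1, an AP-1 subunit gene and ERK target, stood at 1243 and 1626 in KO and 295 and 671 in WT cells (1.67), and Klf4 at 6336 and 6504 in the KO libraries, against 1765 and 1915 in the WT libraries (1.80). Among the AP-1 partner genes, Jun (1060 and 1234 in KO cells, against 1129.8 and 1466 in WT cells, adjusted p = 0.416) did not pass the threshold. Neither did Junb (2808 and 3711 in KO and 1261 and 2969 in WT cells, adjusted p = 0.212), whose KO mean lay above its WT mean with overlapping groups. Junb and Fosl1 were among the 23 genes more than 2-fold higher in WT replicate 2 than in WT replicate 1. Arc stood at 8.05 and 22.03 in the KO libraries, against 13.8 and 16.4 in the WT libraries, with overlapping groups. Atf3 belongs to this list and to the ATF4 list, and Fosl1 to this list and the ERK list.

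Of 29 tested RAS and ERK pathway output genes 16 rose and 6 fell (median 0.50). Among receptor ligands, the epiregulin gene Ereg stood at 30648 and 29360.3 in KO cells, against 10089 and 8263 in WT cells (log2 fold change 1.72 ± 0.11 SE, adjusted p = 1.3e-05) and the amphiregulin gene Areg at 29889 and 29379 in KO and 13497 and 11249 in WT cells (log2 fold change 1.27 ± 0.10 SE, adjusted p = 4.21e-05), while Hbegf fell (−0.64). Their receptor genes moved apart. Egfr stood at 18.1 and 31.2 in the KO libraries, against 852 and 741 in the WT libraries (log2 fold change −5.004 ± 0.23 SE, adjusted p = 3.08e-06), and Erbb3 at 597 and 697 in KO cells, against 117 and 143 in WT cells (log2 fold change 2.31 ± 0.12 SE, adjusted p = 5.86e-06), with Erbb2 not past the threshold (−0.027, adjusted p = 0.875). The ERK phosphatase gene Dusp4 stood at 6899 and 7275 in KO and 1997 and 2112 in WT cells (1.79), and Dusp6 (0.52), Spry4 (1.04) and Spred2 (0.99), which encode feedback inhibitors, rose too. Myc rose to 15713 and 16789 in KO cells, against 8881 and 10289 in WT cells (0.76), and Ccnd1 fell (−0.40).

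DNA replication genes were lower in KO cells. Of 28 tested replication and licensing genes none rose and 17 fell (median −0.34), with 13 to 21 falling over the alternatives. Ccne1, the cyclin of S-phase entry, stood at 720.1 and 700.2 in the KO libraries, against 1609.8 and 1616 in the WT libraries (log2 fold change −1.18 ± 0.07 SE, adjusted p = 1.35e-05). The primase gene Prim1 stood at 1309 and 1296 in KO cells, against 2814 and 2222 in WT cells (−0.94), the clamp loader gene Rfc3 at 847 and 858 in KO and 1715 and 1668 in WT cells (−0.99) and the thymidine kinase gene Tk1 at 3200.1 and 3155 in the KO libraries, against 5053 and 6548 in the WT libraries (−0.86). Mcm2, Mcm5, Cdc6 and Pola1 did not pass the threshold, with log2 fold changes from −0.089 to 0.054. Mitosis and spindle genes fell in 8 and rose in 3 of 26 cases (median −0.038). With 1 KO replicate left out, whichever it was, the counts were 4 lower and 1 higher, and after rescaling 11 lower and 1 higher. Cdk1 was lower (6050.3 and 5764 in KO cells, against 9598 and 8388 in WT cells, −0.60) and the cytokinesis gene Anln was higher (0.45). CDK inhibitor and p53 target genes rose in 9 and fell in 3 of 22 cases (median 0.24), and 1 to 5 fell over the alternatives, the fewest with either 1 of the KO replicates left out. Cdkn1a, which encodes p21, stood at 6420.4 and 6706 in KO cells, against 3681 and 3639 in WT cells (log2 fold change 0.84 ± 0.06 SE, adjusted p = 2.38e-05). Gadd45a (1.41) and Trp53inp1 (1.39) rose further. Trp53 (−0.16, adjusted p = 0.13) and Cdkn2a (121 and 161 in KO cells, against 127 and 153 in WT cells, adjusted p = 0.998) did not pass the threshold.

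Nuclear-encoded oxidative phosphorylation genes moved the same way as replication genes, none of 24 higher and 11 lower (median −0.24). Without KO replicate 1 the lower ones numbered 7, and after rescaling 19. Sdha, the catalytic subunit gene of succinate dehydrogenase, stood at 6545 and 6590.1 in KO and 10625 and 9826 in WT cells (log2 fold change −0.64 ± 0.07 SE, adjusted p = 0.000184), and Cox7b, a cytochrome oxidase subunit gene, at 3677 and 3796 in the KO libraries, against 5954 and 5562 in the WT libraries (−0.62). Ribosome biogenesis genes fell in 7 and rose in 2 of 24 cases (median −0.071), but 2 fell with either 1 of the KO replicates left out, 4 without WT replicate 1 and 12 after rescaling. Ubtf, the Pol I transcription factor gene, was lower at 5063 and 5056 in KO cells, against 6731 and 7612 in WT cells (−0.50).

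WNT genes had the lowest median of the pathway lists after the prolactin family. Of 15 tested ligand, target and feedback genes 10 fell and 3 rose (median −1.32). Among ligands, Wnt7b stood at 455 and 474 in KO cells, against 4581 and 5594 in WT cells (log2 fold change −3.45 ± 0.13 SE, adjusted p = 1.61e-06), Wnt5a at 54.3 and 57.8 in KO and 343 and 308 in WT cells (−2.52) and Wnt4 at 2.01 and 3.67 in the KO libraries, against 34.9 and 30.1 in the WT libraries (−3.15), while Wnt7a did not pass the threshold (0.13, adjusted p = 0.3). Among targets and feedback genes, Axin2 had no read in KO libraries and 15.6 and 19.2 in WT libraries, at least 9.19-fold lower. The transcription factor gene Tcf7 stood at 26.1 and 34.9 in KO cells, against 271 and 275 in WT cells (−3.13) and the receptor-removing ligase gene Rnf43 at 187 and 195 in KO and 432 and 525 in WT cells (−1.32). Ctnnb1, which encodes β-catenin, rose (0.34), as did the receptor gene Fzd1 (0.64). Notch genes fell in 6 and rose in 3 of 12 cases (median −0.36). The ligand gene Jag2 stood at 30.2 and 18.4 in the KO libraries, against 279.9 and 456 in the WT libraries (−3.87), the feedback gene Nrarp at 4.02 and 5.51 in KO cells, against 178 and 195 in WT cells (log2 fold change −5.03 ± 0.30 SE, adjusted p = 1.08e-05), and Notch1 rose to 2036 and 2271 in KO cells, against 885 and 1166 in WT cells (1.08).

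Genes of the TGFβ pathway itself showed no common direction with the receptor inhibited. Of 26 tested TGFβ/SMAD feedback and target genes 8 rose and 7 fell, near the background shares. Without KO replicate 1 the counts were 5 and 3, and without KO replicate 2 they were 7 and 3. The list median of 0.088 turned to −0.066 after rescaling and to −0.018 after quantile normalization. Smad7, the inhibitory SMAD gene, stood at 823 and 867 in KO and 680.1 and 788 in WT cells (0.21, adjusted p = 0.0828). Smad4 was slightly higher, at 3379 and 3131 in the KO libraries, against 2600 and 2441 in the WT libraries (log2 fold change 0.37 ± 0.07 SE, adjusted p = 0.00358). Receptor genes Tgfbr1 (0.081, adjusted p = 0.511) and Tgfbr2 (0.14, 0.0936) did not pass the threshold. The ligand gene Tgfb1 was lower, at 1358 and 1361 in KO cells, against 1954 and 2493 in WT cells (log2 fold change −0.70 ± 0.16 SE, adjusted p = 0.0074). Sox4 (0.88) and Smurf1 (0.75) rose. BMP ligand and ID genes split evenly, 7 higher and 7 lower of 17, and their median also changed sign with scaling (0.094, then −0.059 after rescaling and −0.018 after quantile normalization). Bmp4 stood at 593 and 549.7 in KO cells, against 149 and 176 in WT cells (1.81) and Bmp2 at 201 and 219 in KO and 588 and 537 in WT cells (−1.42), while the activin antagonist gene Fst rose to 6553 and 6439 in KO cells, against 1494 and 1394 in WT cells (log2 fold change 2.17 ± 0.08 SE, adjusted p = 1.33e-06).

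Matrix genes moved in both directions. Of 23 collagen, laminin and crosslinking genes 9 rose and 7 fell (median −0.0078). The rising ones included basement membrane chains: Lama3 stood at 2068 and 1889.6 in the KO libraries, against 152 and 172 in the WT libraries (log2 fold change 3.60 ± 0.10 SE, adjusted p = 3.27e-07) and Lamb3 at 20985 and 22347 in KO cells, against 6748 and 9316 in WT cells (1.45). Col4a1 (0.91) and Col4a2 (1.19), the type IV collagen genes, rose as well. Falling ones included Col7a1, the anchoring fibril collagen, at 64.4 and 64.2 in KO and 1764 and 2729.7 in WT cells (log2 fold change −5.07 ± 0.19 SE, adjusted p = 1.37e-06), and the type VI genes Col6a1 (−1.99) and Col6a2 (−3.41). Secreted fibrogenic and matricellular genes fell in 10 and rose in 6 of 17 cases (median −0.60). Pdgfa stood at 64.4 and 90.9 in the KO libraries, against 476 and 527 in the WT libraries (−2.70) and Il11 at 26.1 and 17.4 in KO cells, against 106 and 99.4 in WT cells (−2.22). Has2, a hyaluronan synthase gene, stood at 16.1 and 6.42 in KO and 53.2 and 43.8 in WT cells (log2 fold change −2.13 ± 0.34 SE, adjusted p = 0.00137). Igfbp3 (0.90), Vegfa (0.77) and Tnc (1.47) rose.

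Matrix metalloproteinase and TIMP genes rose in 3 and fell in 5 of 13 cases (median −0.29), or 2 and 3 without KO replicate 2. Timp3, an inhibitor bound to the matrix, stood at 3721 and 3662 in the KO libraries, against 281 and 231 in the WT libraries (log2 fold change 3.85 ± 0.10 SE, adjusted p = 3.27e-07), and the membrane-type protease gene Mmp15 at 3309 and 3469 in KO cells, against 288 and 321 in WT cells (log2 fold change 3.47 ± 0.11 SE, adjusted p = 6.85e-07), whereas Mmp14 fell to 1857 and 1762 in KO cells, against 3094 and 3304 in WT cells (−0.82). Integrin and hyaluronan receptor genes rose in 8 and fell in 2 of 18 cases (median 0.28). Itgb4, the hemidesmosomal subunit gene, stood at 15266 and 16701 in KO and 4782 and 7184 in WT cells (1.45) and Itgb3 at 2589 and 2537 in the KO libraries, against 1055 and 981 in the WT libraries (1.33). Actin and SRF target genes rose in 10 and fell in 1 of 16 cases (median 0.28), but only 4 rose with either 1 of the KO replicates left out and 4 after rescaling or quantile normalization, and 6 without WT replicate 1. YAP and TAZ target genes rose in 10 and fell in 4 of 16 cases (median 0.50). Nt5e, the ecto-5′-nucleotidase gene, stood at 11805 and 11537 in KO cells, against 2065 and 1748 in WT cells (log2 fold change 2.62 ± 0.10 SE, adjusted p = 1.43e-06), but the classic target Ankrd1 fell (−0.54), and so did Ctgf (−0.64) and Cyr61 (−1.01), which are in the fibrogenic list.

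Among metabolic lists, NRF2 and xenobiotic metabolism genes rose in 16 and fell in 3 of 26 cases (median 0.46). Part of the rise was Ces1d, Ces1g and Gpx2, given above. The 3 that fell were Cyp1a1, Aldh1a3 and Gsta1. Cyp1a1, the dioxin-inducible cytochrome P450, stood at 155 and 177 in KO and 3187 and 2934 in WT cells (log2 fold change −4.20 ± 0.12 SE, adjusted p = 4.21e-07), and Aldh1a3, a retinoic acid synthesis enzyme gene, at 12.1 and 22.03 in the KO libraries, against 156 and 161 in the WT libraries (−3.20). Hmox1, the haem oxygenase gene, stood at 13086 and 13313 in KO cells, against 5496 and 6237 in WT cells (log2 fold change 1.17 ± 0.10 SE, adjusted p = 4.94e-05) and Cyp2s1 at 2036 and 2143 in KO and 491 and 496 in WT cells (2.08). Gsta1 (−2.92) and Gsta3 (3.87) moved in opposite directions, and since these glutathione transferase genes are close copies their reads may be shared. The NRF2 gene Nfe2l2 did not pass the threshold (0.15, adjusted p = 0.149).

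Fatty acid genes rose in 12 and fell in 2 of 18 cases (median 0.33). Scd1, the stearoyl-CoA desaturase gene, stood at 15711 and 15282 in the KO libraries, against 5262 and 4679 in the WT libraries (log2 fold change 1.64 ± 0.08 SE, adjusted p = 3.64e-06), while its relative Scd2 fell to 32152 and 32065 in KO cells, against 47997 and 43460.1 in WT cells (−0.51). Of 24 cholesterol synthesis genes 6 were higher and 6 lower. The counts were 3 and 10 after rescaling or quantile normalization, and 3 and 6 with either 1 of the KO replicates left out. Their median of 0.027 turned to −0.13 after rescaling and −0.041 after quantile normalization. Glycolysis and hypoxia-induced genes rose in 10 and fell in 2 of 23 cases (median 0.19), with 5 rising without KO replicate 1 and 6 without KO replicate 2. Hk2, the inducible hexokinase gene, stood at 13671 and 14035 in KO cells, against 5759 and 5729 in WT cells (log2 fold change 1.27 ± 0.05 SE, adjusted p = 2.36e-06), Pfkp at 3954 and 3674 in KO and 1243 and 1187 in WT cells (1.65) and Ndrg1 at 35328 and 35414 in the KO libraries, against 15369.8 and 14951 in the WT libraries (1.22), while Ldha fell slightly (−0.25).

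Immune lists were mixed. Chemokine and colony-stimulating factor genes rose in 8 and fell in 3 of 18 cases (median 0.40). Ccl20, a ligand for CCR6 on immature dendritic cells and lymphocytes, stood at 4529.7 and 4389 in KO cells, against 1166 and 1092 in WT cells (log2 fold change 1.98 ± 0.13 SE, adjusted p = 1.95e-05), and Ccl9 fell to 26.1 and 21.1 in KO cells, against 249 and 167 in WT cells (log2 fold change −3.06 ± 0.26 SE, adjusted p = 5.27e-05). Interferon-stimulated genes rose in 6 and fell in 5 of 18 cases (median 0.24), or 6 and 3 without KO replicate 2. Mx1, an antiviral GTPase gene, stood at 135 and 162 in KO and 5.51 and 6.38 in WT cells (4.42), while Irf1 (−0.68) and Stat2 (−0.86) fell. Oas1a had 169 reads in KO and 1 in WT cells, a ratio of 233 with a counting interval of 41.2 to 9250, and Oas1 copies may share reads. Genes of MHC class I presentation rose in 4 and fell in 3 of 11 cases (median 0.20), with 2 rising with either 1 of the KO replicates left out. Within this list Cd274, which encodes the checkpoint ligand PD-L1, stood at 465 and 446 in the KO libraries, against 176 and 158 in the WT libraries (log2 fold change 1.44 ± 0.18 SE, adjusted p = 0.00036), and H2-D1 was lower (−0.48).

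**Figure D3:**
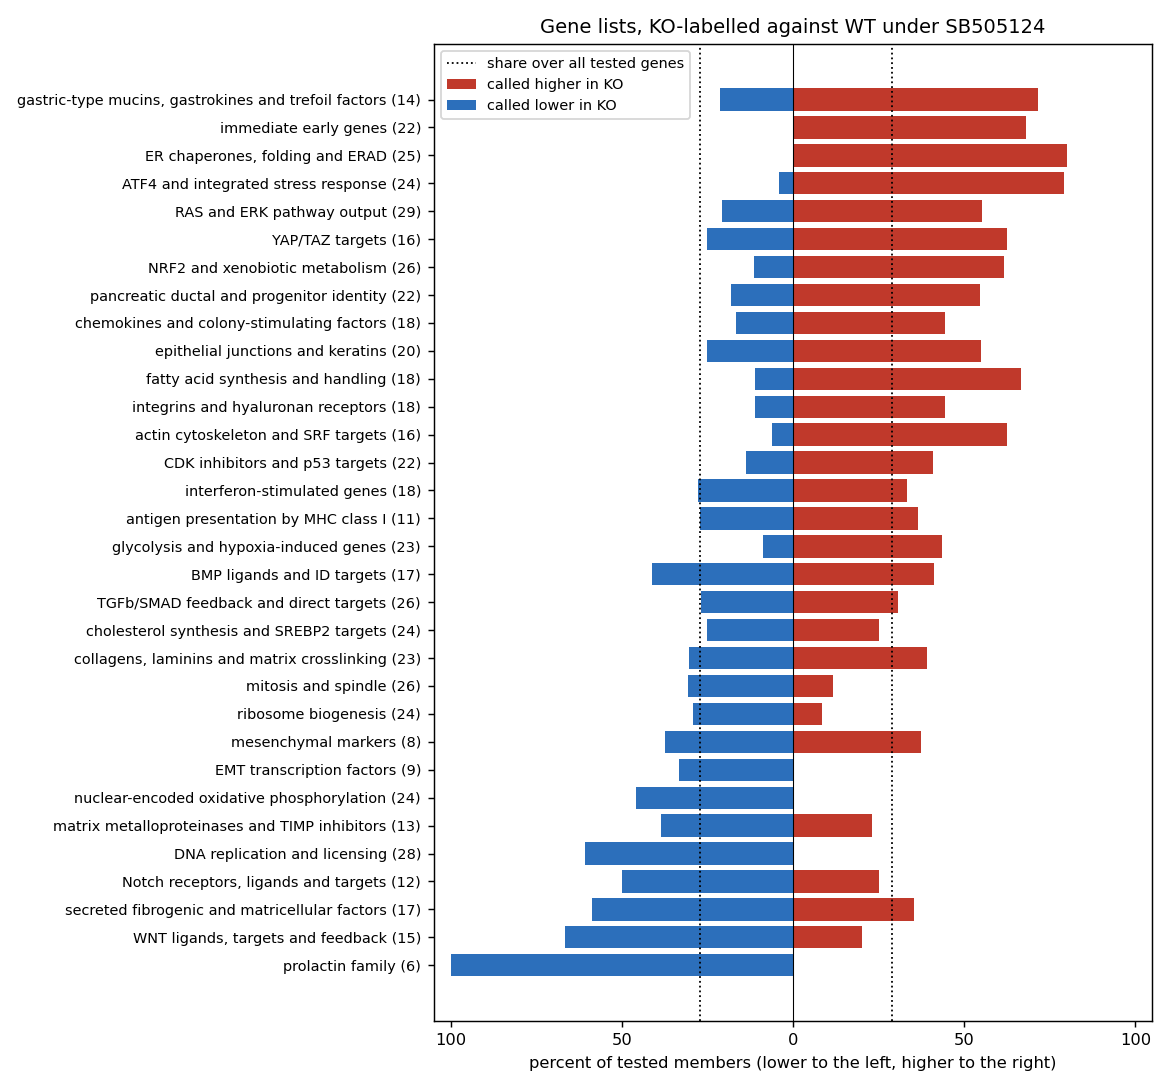
Percent of the tested members of each gene list called higher (red, right of 0) or lower (blue, left of 0) in KO cells under SB505124, lists in order of their median log2 fold change and with the number of tested members in brackets. The dotted lines mark the shares over all 13226 tested genes, 28.9% higher and 27.2% lower, and the ER, ATF4 and immediate early lists reach past the line for higher while their blue bars stay under 5%.

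The prolactin family was lower throughout, and all its tested members lie on chromosome 13. Prolactins are pituitary and placental hormones, and the proliferin genes Prl2c are relatives expressed in placenta and in some cultured mouse cells. All 6 tested members fell (median −3.12), and 5 to 6 fell over the alternatives. Prl2c2 stood at 4455 and 4451 in KO cells, against 36151 and 30072 in WT cells (log2 fold change −2.89 ± 0.11 SE, adjusted p = 1.31e-06). Prl2c3 stood at 20.1 and 20.2 in KO and 229 and 178 in WT cells (−3.26) and Prl2c5 at 10.1 and 11.01 in the KO libraries, against 119 and 88.5 in the WT libraries (−3.17), although the Prl2c genes are near-identical copies and may share reads. Prl6a1 fell by less, at 8.05 and 10.1 in KO cells, against 18.4 and 18.2 in WT cells (−0.95). Of a list of X inactivation and Y-linked genes 1 was tested, Xist, the RNA that silences an X chromosome. It stood at 21699 and 20138 in KO and 15562 and 12676 in WT cells (log2 fold change 0.57 ± 0.12 SE, adjusted p = 0.00409).

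Position on the genome went with the difference. Of the tested genes, 13171 had a position in the GRCm38.p6 annotation. On chromosome 13, which also holds Rreb1, 268 of 498 genes were lower and 68 higher in KO cells, with a median log2 fold change of −0.40. The other chromosomes had medians from −0.15 to 0.26. After rescaling to the same total the chromosome 13 median was −0.56, beside −0.156 for all genes. In all 6 windows of 20 Mb along chromosome 13 the median was negative, from −0.59 to −0.31. Chromosomes 1, 6 and 8 had positive medians of 0.24, 0.26 and 0.20, which were 0.086, 0.10 and 0.045 after rescaling. On chromosome 6, 274 of 633 genes were higher and 98 lower, and on chromosome 1 the counts were 341 and 127 of 755. In the TGFβ libraries the medians were −0.36 on chromosome 13, 0.21 on chromosome 1, 0.24 on chromosome 6 and 0.21 on chromosome 8. The chromosomes and windows were chosen after their values were seen, and the number of chromosome copies in these cells was not tested.

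**Figure D4:**
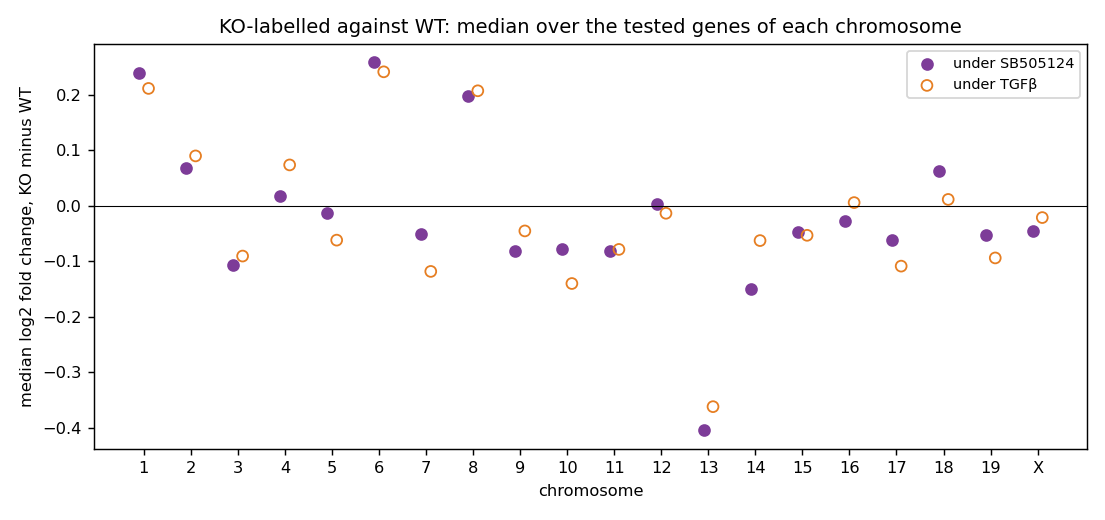
Median log2 fold change of KO over WT cells (vertical axis) over the tested genes of each chromosome (horizontal axis) under SB505124 (filled points) and under TGFβ (open points). Chromosome 13 lies lowest at −0.40 and −0.36, and chromosomes 1, 6 and 8 lie highest, from 0.20 to 0.26 under SB505124.

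The genotypes were compared again in the 4 TGFβ libraries, which share no library with the SB505124 comparison. There 5316 genes (40.2%) were called, 2808 higher (21.2%) and 2508 lower (19.0%). Across the 13226 genes the log2 fold changes of the 2 comparisons had a Pearson r of 0.863, given as a description since genes are not independent. Both comparisons called 4010 genes, 3712 in the same direction and 298 in opposite directions. The 3712 are 50.0% of the calls under SB505124 and 69.8% of those under TGFβ. The gastric list under TGFβ was 10 higher and 3 lower of 14 with a median of 2.66. The prolactin family had a median of −2.89 there, with 5 of 6 lower. WNT genes were low there too (median −2.63, 11 of 15 lower and 3 higher).

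Whether the genotype difference itself depended on the treatment was tested as an interaction, the difference under SB505124 minus the difference under TGFβ. It was called for 2886 genes (21.8%), 1602 higher under SB505124 (12.1%) and 1284 lower (9.71%). In 1996 of the 2886 the genotypes lay further apart under SB505124, and in 890 under TGFβ. The treatments differ in agent and in time, 6 h against 1.5 h, and these cannot be told apart. Of the 25 ER genes 18 had a called interaction, and under TGFβ only 3 were higher and 3 lower (median −0.0017). Of the 24 ATF4 genes 18 had one, with 4 higher and 5 lower under TGFβ (median −0.023). For Hspa5 the log2 fold change was 1.49 under SB505124 and 0.11 under TGFβ (interaction 1.38 ± 0.13, adjusted p = 0.00119). Ddit3 stood at 146 and 146 in KO and 171 and 137 in WT cells under TGFβ (interaction 1.69 ± 0.20, adjusted p = 0.0022).

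Replication genes, 17 of 28 lower under SB505124, had 4 lower and 4 higher under TGFβ, and 14 had a called interaction. Oxidative phosphorylation genes had 1 lower and 8 higher under TGFβ, and 13 of 24 had a called interaction. Immediate early genes had 8 higher and 6 lower, with 11 of 22 called. Cholesterol genes were 17 higher and 1 lower of 24 under TGFβ, and 11 were called. In the gastric list 2 of 14 genes and in the WNT list 3 of 15 had a called interaction, counts near the 21.8% of all genes. Without WT TGFβ replicate 1 the interaction was called for 764 genes, without WT TGFβ replicate 2 for 827, without KO SB505124 replicate 1 for 940 and without KO SB505124 replicate 2 for 1188.

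**Figure D5:**
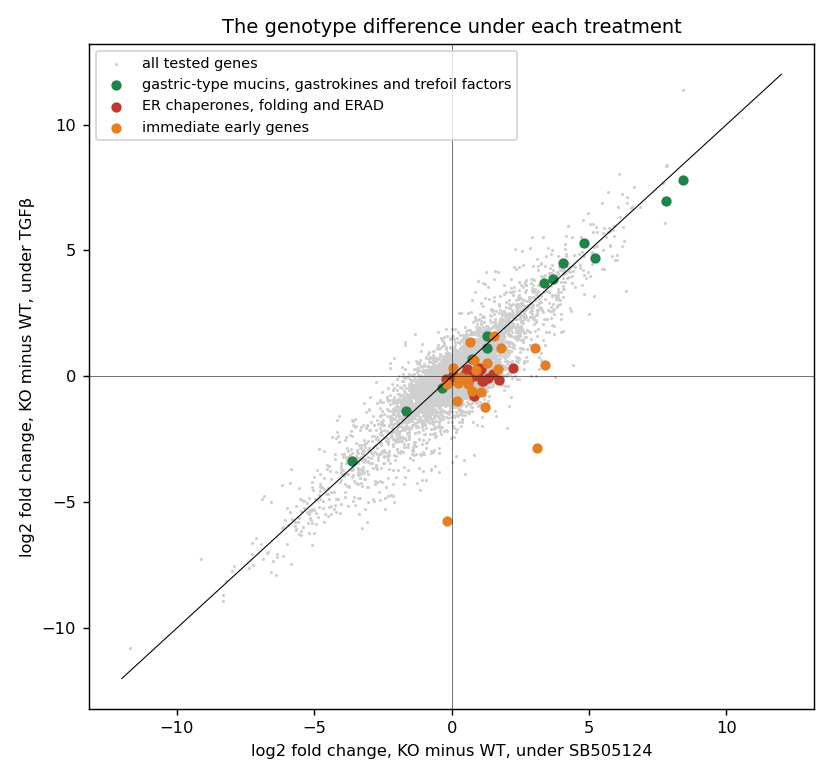
Log2 fold change of KO over WT cells under TGFβ (vertical axis) against that under SB505124 (horizontal axis), one grey point per tested gene, with the line of equal differences. Gastric genes (green) follow the line, whereas ER chaperone genes (red) reach up to 2.23 under SB505124 and lie near 0 under TGFβ, where their median is −0.0017.

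In E14 stem cells at day 0, where 10230 of 15224 tested genes (67.2%) were called between the KO and WT labels, the genotypes were compared in the same way. Over the 12371 genes tested in both tables the log2 fold changes had a Pearson r of 0.0894. Both comparisons called 4830 genes, 3128 in the same direction and 1702 in opposite directions. Of the 24 tested ATF4 list genes only the 6 with the lowest adjusted p in PDA cells are given for E14 cells. They do not stand for the whole list. Of the genes tested in both PDA and E14 cells and called in PDA cells, 45.3% were called the same way in E14 cells. The counts of this list and of the ER list below are to be read against that share. All 6 of these ATF4 list genes were higher in KO E14 cells. Their log2 fold changes there were 2.81 for Atf3, 2.11 for Stc2, 1.69 for Slc7a11, 1.15 for Mthfd2, 0.98 for Ppp1r15a and 0.62 for Slc3a2. The 6 ER list genes chosen in the same way were split. Herpud1 (2.39), Atf6 (0.98) and Sel1l (0.76) were higher in KO E14 cells, and Hyou1 (−0.23) and Pdia4 (−0.63) were lower. Hspa5 did not pass the threshold in E14 cells (log2 fold change −0.084, adjusted p = 0.265). Fos (−0.61) and Egr1 (−0.85) were lower in KO than in WT E14 cells. Prrx1, without a read in KO PDA cells, was higher in KO E14 cells (3.69), and Gpx2, among the largest increases in PDA cells, was lower there (−3.56).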

How the data were processed

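Libraries were prepared with a TruSeq v2 kit and read from a single end, per the labels' protocols. That kit does not mark strand. Named without roles in the submitters' processing notes are HOMER, HTSeq 0.6.1p1, Bowtie2, FastQC 0.11.5, DESeq2 3.4 and the mm10 build. The deposited signal is the authors' normalized read count per gene. In each PDA library dividing it by the library's smallest step gave whole reads, within 0.001, for 100% of values, so each library was scaled by 1 factor. Overlapping and antisense genes therefore cannot be told apart.

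Genes reaching 10 units in 2 or more of the 8 libraries were tested on log2(value + 1), which understates changes of low genes, with limma 3.58.1 (R 4.3.3, trend) over 8 libraries in 4 groups of 2. P-values were two-sided and adjusted over all tested genes by the Benjamini-Hochberg method, with a threshold of 0.05. The pipeline was checked on simulated reads with the same spread in every library, unlike the replicate pairs here. That check does not give the error rate in these data. Alternatives were pseudocounts of 5 and 0.5, no filter, rescaling to the same total, quantile normalization, the replicate number as a block, edgeR 4.0.16 and DESeq2 1.42.0 on the recovered reads, leaving out each library, and only the 4 SB505124 libraries.

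The members and gene lists were chosen with earlier results of these data known. Named genes were Rreb1, the 12 largest differences each way among called genes (mean 50 or more, no overlap between groups), up to 6 members per list by adjusted p, the 5 largest interactions each way, and Snai1, Has2, Smad7, Smad4, Cdkn2a and Trp53. Some genes that these rules took are left out here. Other genes were named after their values were seen. The floor of a gene at 0 was 3 reads over the group, a value of 1.89 in KO and 1.37 in WT cells. With genes at 0 set at this bound, no median of the 33 lists moved. Positions and promoters came from RefSeq (GRCm38.p6).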

Additional observations from a re-analysis of the deposited data

Results flagged for a closer look

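The genotype difference differed between the treatments, by the interaction test, for 2886 genes. The value given for each gene is the KO over WT log2 fold change under SB505124 minus that under TGFβ. Arc, an activity-regulated gene, had the largest positive value (5.60 ± 0.60 SE, adjusted p = 0.00158). It stood at 8.05 and 22.03 in KO and 13.8 and 16.4 in WT cells under SB505124, and at 17.2 and 10.9 in KO and 781 and 802 in WT cells under TGFβ. Lancl3 (4.38 ± 0.19 SE, adjusted p = 0.000179) stood at 688 and 607 in KO and 508 and 417 in WT cells under SB505124, and averaged 19.97 in KO and 311 in WT cells under TGFβ. The folate enzyme gene Aldh1l2 (3.37 ± 0.30 SE, adjusted p = 0.000928), the cytokine feedback gene Cish (3.30 ± 0.35 SE, adjusted p = 0.00157) and Stamos (2.99 ± 0.35 SE, adjusted p = 0.00217) followed. Stamos is named as in the deposited table and is given no role here. A positive value does not mean a higher level in KO cells under SB505124. There Aldh1l2 was lower in KO cells, as given above, and Cish did not pass the threshold.

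In the other direction Ces1g (−2.93 ± 0.31 SE, adjusted p = 0.00156) was at 2491 and 2756 in KO and 0 and 0 in WT cells under TGFβ. Under SB505124 it was at 807 and 797 in KO cells and had 3 reads in all in WT cells. Part of its interaction therefore rests on WT levels near the floor. The carboxylesterase neighbour Ces1f (−1.95 ± 0.34 SE, adjusted p = 0.00878) may share reads with Ces1g. Frmpd1 (−1.96 ± 0.30 SE, adjusted p = 0.00553), the G protein regulator gene Rgs2 (−1.93 ± 0.19 SE, adjusted p = 0.00148) and the aquaporin gene Aqp11 (−1.90 ± 0.21 SE, adjusted p = 0.00193) completed the 5 largest negative values. With edgeR 9 of these named interactions kept their call and 1 lost it, and the counts with DESeq2 were the same. Groups of 2 libraries were too small to test single samples for standing apart.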

How the results depend on the processing

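Of 3893 values of the 229 named genes under 17 alternatives, 3820 kept their direction and side of the threshold, 54 kept the direction and lost the call, 8 gained it and 11 changed sign. Genes called under SB505124 numbered 7428, 7475 and 7413 with pseudocounts of 5 and 0.5, 7480 with no filter, 7876 after rescaling, 7421 after quantile normalization, 7325 with edgeR, 6591 with DESeq2, 6634 with the replicate block, 6465 from the 4 SB505124 libraries alone, and 5512 to 7689 when a library was left out. The TGFβ comparison gave 3212 to 6148 without a library, and the interaction 764 to 3881, with 1596 under the replicate block. Rescaling turned the interaction's balance to 1388 higher and 1869 lower, quantile normalization to 1405 and 1606. Same-numbered libraries did not deviate together: their deviations correlated between −0.506 and 0.144. The −0.506 was between WT cells under SB505124 and KO cells under TGFβ, so in this pair libraries of unlike number tended to deviate together. The replicates of these groups also differed most. In the other pairs of groups the values ran from −0.159 to 0.144. The replicate block does not remove a link between libraries of unlike number, and what lay behind this link was not tested.

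Sign changes fell on 4 named genes, none of them called, and on the medians of 3 pathway lists and 1 marker list. Arc, −0.15 under SB505124, was 0.22 with edgeR, 0.19 with DESeq2 and ran from −0.83 (without KO SB505124 replicate 2) to 0.52 (without replicate 1). Cdkn2a, −0.00083, was 0.027 after quantile normalization, 0.066 with edgeR, 0.032 with DESeq2, and −0.21 to 0.20 without a library (0.14 without WT replicate 2). Cish, 0.15, was −0.0021 after rescaling and −0.20 to 0.49 without a library, and Snai1, −0.65, was −1.59 to 0.29. List medians turned after rescaling and quantile normalization for TGFβ/SMAD genes (−0.066, −0.018), BMP and ID genes (−0.059, −0.018) and cholesterol genes (−0.13, −0.041), and for 2 acinar markers after quantile normalization (0.071). The cause was not tested.

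With 2 libraries per group and KO replicate 1 at less depth than the others, small differences and genes of few reads are the least certain.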
